A study of Mus musculus with 18 samples.

Results

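The knockdown of PCBP1 was examined after 2 days of erythroid differentiation in mouse fetal liver progenitors. Members were chosen by sample title: 3 libraries with short hairpin RNAs (shRNAs) against Pcbp1 (hairpins 1, 3 and 4) and 3 control libraries (scrambled SCR-1 and SCR-2, and luciferase LUC-1), 6 of the 18 libraries in the series. All cells came from E14.5 livers of the CD-1 strain and were enriched for hematopoietic progenitors. They were infected with MSCV-PIG retroviruses, which carry puromycin resistance and green fluorescent protein beside the shRNA, and were grown for 48 hours with dexamethasone, erythropoietin and stem cell factor (Day 0). Day 2 cells spent 2 further days in differentiation medium with erythropoietin. The remaining groups were PCBP2 knockdown at Day 2 and the same conditions at Day 0, each with 3 libraries. Replicates of the knockdown are different hairpins, and the labels do not say whether libraries came from separate cultures or litters, so p-values measure the spread between these libraries only. The cultures were mixtures of maturing cells, and in such bulk RNA fewer cells of a type and less RNA per cell cannot be told apart.

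PCBP1 is a poly(C)-binding protein with KH domains. It belongs to a family with PCBP2 and hnRNP K that binds cytosine-rich stretches in RNA and acts on splicing, stability and translation, and it also delivers iron to ferritin. Late erythroblasts fill with hemoglobin, assemble the spectrin and ankyrin membrane skeleton, stop dividing and shed the nucleus, and their splicing programme changes along the way.

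The Day 2 controls held 34692385, 38006881 and 34331121 estimated reads (LUC-1 last) and the knockdown libraries 28233193, 28698919 and 29535905 (hairpins 1, 3 and 4). Globin genes took 27.6%, 31.7% and 33.5% of the reads in the controls and 24.7%, 25.7% and 26.6% in the knockdown, with every knockdown library below every control. Hemoglobin mRNA marks the cells as erythroid in both groups. LUC-1 stood apart: on the first principal component of the 9 Day 2 libraries (27.7% of the variance) it scored 54.1, against 2.28 and 12.8 for SCR-1 and SCR-2, and -35.8, -19.0 and -32.1 for the knockdown. Many results are also given without it. Where a gene has no such value, this does not mean that its call holds without LUC-1.

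Pcbp1, on the targeted transcript, was low in every knockdown library. Its level was 140.9, 165.8 and 169.4 CPM (read counts scaled to the normalised library size) in the controls (SCR-1, then SCR-2, then LUC-1, the order used throughout) and 9.38, 33.9 and 24.1 CPM with hairpins 1, 3 and 4. Hairpin 1 left 5.91% of the control mean, hairpin 3 left 21.3% and hairpin 4 left 15.2%. The fitted log2 fold change was -2.82 (SE 0.31, edgeR quasi-likelihood test, adjusted p = 0.000867). Pcbp2, the closest relative, had 133.7, 132.8 and 147.7 CPM in controls against 108.3, 127.3 and 115.1 CPM under the knockdown (log2 -0.24, SE 0.13, adjusted p = 0.294). Hnrnpk had a log2 difference of -0.10 (SE 0.10, adjusted p = 0.594), and Pcbp3 stayed under about 1 CPM except in the hairpin 1 library, at 1.03 CPM. Neither Pcbp2 nor Hnrnpk passed the test. For Pcbp2 every hairpin lay below every control, and the groups were apart, in either direction, in 24.0% of all tested genes.

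Splicing was read from the authors' deposited table of local splicing variations, each being the set of junctions that leave or enter 1 exon. For every junction it gives the percent spliced in (PSI, the share of that variation's reads using the junction) in the pooled controls and the pooled knockdown libraries, and a posterior probability that PSI moved by at least 0.20 as a fraction. The groups are pooled, so these values carry no replicate error. With a posterior of at least 0.95, the authors' deposited table called 168 of 87825 variations (0.191%), in 135 of 7631 genes, and these amount to 141 separate events. Cassette exons were the most common kind: in 60 called variations an exon was included less in the knockdown and in 19 it was included more. A further 18 were alternative 5' splice sites, 10 alternative 3' splice sites, 2 retained introns, 49 other exon choices and 10 of other kinds. The excess of lower inclusion was seen in the called set but not below it: among variations that were not called and moved by at least 5 points, 786 had lower and 1141 had higher cassette inclusion. The 63 distinct cassette exons comprised 46 included less and 17 included more.

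**Figure D1:**
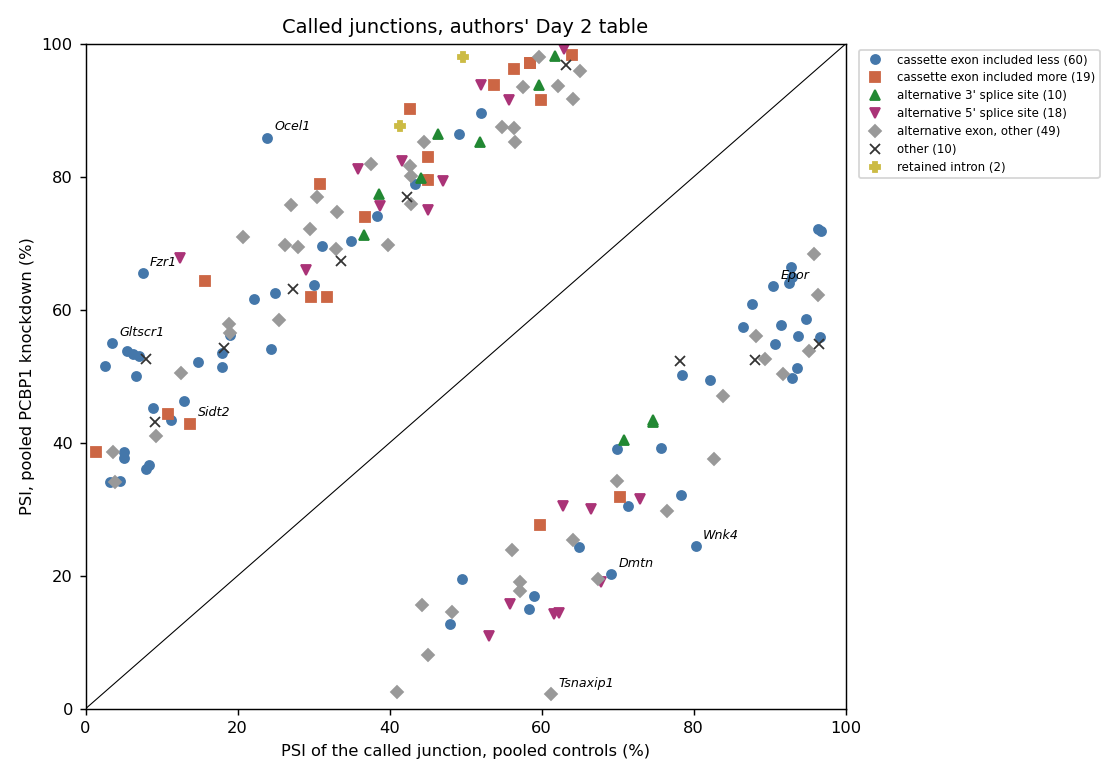
PSI of the called junction of each of the 168 variations in the authors' deposited table, in pooled Day 2 controls (x axis, %) and pooled PCBP1 knockdown (y axis, %). Each point is 1 variation, coloured by kind, and the line marks equal use. Points in the upper left are junctions used more in the knockdown, such as the Fzr1 exon-skipping junction at 7.5% and 65.5%, and points in the lower right are junctions used less, such as the Dmtn inclusion junction at 69.2% and 20.3%.

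Of the 46 less included cassette exons, 38 lay in coding sequence, and 16 of these had a length that is a multiple of 3, so that skipping them keeps the reading frame. Of the 17 more included exons, 16 were coding and 7 of them were multiples of 3. Among the 167745 internal coding exons of the annotation, 41.0% have such a length. The median length was 105 bases for the less included and 103 bases for the more included exons.

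Several exons in the called set belong to proteins of the red cell or platelet lineage or of membrane lipid and vesicle biology, and their sequences are printed because PCBP1 is known for binding C-rich RNA. Lines give the exon on the transcript strand, with every run of at least 3 cytosines in capitals, from GENCODE M21 transcripts on GRCm38. The genes other than Dmtn, Epor and Itga2b were chosen after their values were seen. Dmtn exon 3 of 16 lies at chr14:70617955-70618029 on the minus strand, Epor exon 5 of 8 at chr9:21960690-21960843 on the minus strand, Itga2b exons 19 and 11 of 30 at chr11:102460138-102460205 and chr11:102465305-102465357 on the minus strand, Gripap1 exon 8 of 25 at chrX:7800536-7800583 on the plus strand, Pcyt2 exon 7 of 14 at chr11:120613030-120613083 on the minus strand, Usp19 exon 19 of 27 at chr9:108498123-108498241 on the plus strand, Ranbp10 exon 11 of 14 at chr8:105773038-105773159 on the minus strand and Sidt2 exon 3 of 8 at chr9:45947629-45947697 on the minus strand.
Dmtn: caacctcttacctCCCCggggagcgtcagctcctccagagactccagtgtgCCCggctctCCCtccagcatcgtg
Epor: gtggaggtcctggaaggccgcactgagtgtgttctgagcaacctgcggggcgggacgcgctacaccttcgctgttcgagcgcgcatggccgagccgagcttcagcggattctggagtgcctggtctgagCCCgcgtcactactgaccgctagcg
Itga2b exon 19: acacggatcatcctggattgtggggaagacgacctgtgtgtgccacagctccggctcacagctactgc
Itga2b exon 11: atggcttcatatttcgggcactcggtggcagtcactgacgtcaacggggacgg
Gripap1: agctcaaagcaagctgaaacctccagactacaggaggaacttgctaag
Pcyt2: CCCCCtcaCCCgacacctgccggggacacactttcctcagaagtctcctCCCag
Usp19: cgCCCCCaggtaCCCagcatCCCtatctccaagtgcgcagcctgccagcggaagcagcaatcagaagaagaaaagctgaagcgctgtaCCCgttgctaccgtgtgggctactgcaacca
Ranbp10: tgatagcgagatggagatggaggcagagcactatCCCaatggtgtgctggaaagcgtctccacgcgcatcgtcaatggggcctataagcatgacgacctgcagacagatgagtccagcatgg
Sidt2: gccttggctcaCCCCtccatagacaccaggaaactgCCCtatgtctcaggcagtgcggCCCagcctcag

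A run of CCC on the transcript strand occurred 3 times in the Dmtn, Pcyt2 and Sidt2 exons, 4 times in the Usp19 exon, 1 time in the Epor and Ranbp10 exons, and in none of the Itga2b and Gripap1 exons. Of all annotated internal coding exons of the same length, 52.9% hold such a run for Dmtn, 54% for Pcyt2, 51.3% for Sidt2, 71.6% for Usp19, 82.3% for Epor, 74.7% for Ranbp10, 46.9% and 39.2% for Itga2b exons 19 and 11, and 39.7% for Gripap1. The Sidt2 exon, with 3 runs, was the only one of the printed exons that was included more in the knockdown, so runs of C were found in exons that moved either way. The introns beside these exons were not analysed here.

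Dmtn encodes dematin, which bundles actin in the red cell membrane skeleton. Use of the junction that includes its 75-base exon, which codes for 25 residues, fell from 69.2% in the pooled controls to 20.3% in the knockdown in the authors' deposited table. At Day 0 the corresponding values were 84.9% and 24.6%, also called, in the authors' deposited table for that day. With PCBP2 knockdown at Day 2, which shares the Day 2 controls, the PSI of this junction was 47.4% in the authors' deposited table and was not called (posterior 0.6115). Dmtn was thus 1 of 7 called variations that were called on both days.

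Each library was then given its own value from the deposited transcript abundances, as the share of TPM (transcript abundance corrected for length) carrying the junction among annotated transcripts with any junction of that variation. For Dmtn this share was 90.0%, 92.3% and 91.3% in the controls and 84.2%, 87.4% and 83.5% with hairpins 1, 3 and 4. The groups did not overlap, and the mean difference of -6.13 points was smaller than the change in PSI of the authors' deposited table. Both measures come from the same reads and are not independent. Of the 168 called variations, 59 could be measured this way. Some of the 59 share their junction and values with another, as in Uba7 and Gripap1, so they are not all separate events. The sign was that of the authors' deposited table in 55 of them (93.2%), and in 33 the groups also did not overlap in that direction, with 1 not overlapping in the opposite direction. Among 14921 variations that were not called, the groups did not overlap in 17.3%, in either direction. The median absolute difference was 8.51 points in the called and 2.13 points in the other variations. With 3 libraries against 3, an exact two-sided permutation test cannot go below p = 0.10 for a single junction, so no junction is tested on its own.

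Itga2b encodes the integrin alpha chain of the platelet fibrinogen receptor, which progenitors also carry. Junction use into its 68-base exon was 84.5%, 83.8% and 82.6% in the controls and 65.9%, 72.7% and 72.4% with hairpins 1, 3 and 4. All 3 knockdown libraries were below all controls. The pooled PSI of that junction went from 96.4% to 72.2% in the authors' deposited table, and a second exon of 53 bases went from 96.8% to 71.8%. Neither length is a multiple of 3. Total Itga2b mRNA did not pass the test (log2 0.21, SE 0.12, adjusted p = 0.3).

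Pcyt2 encodes the rate-limiting enzyme of phosphatidylethanolamine synthesis. Skipping of its 54-base exon, which codes for 18 residues, rose from 52.0% to 89.6% in the authors' deposited table at Day 2 and from 43.6% to 79.5% in the authors' deposited table for Day 0. Per library, the skipping junction was used at 9.81%, 10.98% and 10.45% in the controls and 19.9%, 22.3% and 14.6% with hairpins 1, 3 and 4. Every hairpin was above every control. Sidt2, a lysosomal membrane protein linked to nucleic acid transport, went the other way. Inclusion of its 69-base exon rose from 13.8% to 42.9% in the authors' deposited table and from 37.1% to 66.3% at Day 0. The library values were 27.7%, 28.8% and 23.3% in the controls and 38.1%, 36.5% and 38.0% in the knockdown, again without overlap. With PCBP2 knockdown the Sidt2 junction was at 12%, in the authors' deposited table for that comparison.

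Gripap1, an endosomal protein, had skipping of its 48-base exon at 18% in controls and 51.4% in the knockdown in the authors' deposited table, but its transcript-based values overlapped between groups. Usp19, a deubiquitinase anchored in the endoplasmic reticulum, had its 119-base exon joined at 89.7%, 91.9% and 92.2% in the controls and 77.9%, 82.2% and 81.5% in the knockdown. The pooled PSI of that junction was 90.7% and 54.9% in the authors' deposited table. Napa encodes alpha-SNAP, which recycles the machinery of vesicle fusion. Its called junction was used at 76.5%, 79.0% and 83.6% in the controls and 51.0%, 65.9% and 62.3% in the knockdown. Both genes had no overlap between groups. Uba7, the activating enzyme of ISG15 conjugation, had its called 3' splice site used at 87.6%, 90.1% and 87.3% in the controls and 64.9%, 79.5% and 74.8% in the knockdown. Son, a nuclear speckle protein needed for the splicing of weak introns, had a junction at 49.8%, 44.0% and 49.6% in the controls and 38.2%, 40.3% and 39.5% in the knockdown.

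The erythropoietin receptor gene Epor lost inclusion of its 154-base exon, from 90.5% to 63.6% in the authors' deposited table, with a posterior of 0.9555. At Day 0 that junction was at 92.0% and 80.3% and was not called in the authors' deposited table for Day 0. Ranbp10, a tubulin-binding protein of megakaryocytes and erythroblasts, had its 122-base exon at 92.8% and 66.5% in the authors' deposited table. Neither exon length is a multiple of 3. The transcript-based share gave no value for these junctions, so they rest on the pooled groups. Other called genes with a role in blood cells were Csf2rb2, a beta chain of the interleukin-3 receptor (62.8% to 30.5%), Cd47, the do-not-eat-me signal of red cells (27.9% to 69.4%), and Ptpn11, the SHP-2 phosphatase (72.9% to 31.6%), all from the authors' deposited table. For both Cd47 and Ptpn11 the posterior was 0.9513 in the authors' deposited table, just above the threshold. Their called junctions are not in the annotation, and the transcript-based share gave no value for them. For Ptpn11, the PCBP2 knockdown gave 31.8%, also called, in the authors' deposited table for that comparison.

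Among the largest changes, Fzr1, which activates the anaphase-promoting complex at cell cycle exit, showed exon skipping at 7.5% in controls and 65.5% in the knockdown in the authors' deposited table, against 8.9% with PCBP2 knockdown. Its skipping junction is not in the annotation, so the transcript-based share measured another junction, and its groups overlapped (91.5%, 88.6% and 93.6% against 92.3%, 89.2% and 90.8%). Wnk4, a kinase of ion transport, went from 80.3% to 24.5%, and Gltscr1, a chromatin remodelling subunit, from 3.5% to 55.0% for exon skipping, in the authors' deposited table. Ocel1 moved from 23.9% to 85.9% in the authors' deposited table, but its mRNA was at about 1.57 CPM in controls. In 52 of the 168 variations the called junction is not in the annotation.

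In part of the called set the Day 2 controls stood farther from the Day 0 controls than the Day 2 knockdown did. Hadhb, the beta subunit of the mitochondrial trifunctional protein, had a junction at 98.8% in Day 0 controls, 42.7% in Day 2 controls and 90.2% in the Day 2 knockdown, in the authors' deposited table for each day. Its transcript-based use differed from this, at 95.5%, 95.2% and 89.1% in the Day 2 controls and 97.3%, 94.5% and 97.9% in the knockdown, and the groups overlapped. Brox was at 97.3%, 30.8% and 78.9%, and Traf5, an adaptor of tumour necrosis factor receptors, at 94.4%, 30.4% and 77.0%, from the same authors' deposited tables. Of 124 called junctions present on both days, 66 differed by at least 20 points between the Day 0 and Day 2 controls. In 58 of these 66 the Day 2 knockdown PSI lay nearer to the Day 0 control than the Day 2 control did, and in 8 it lay farther, by the authors' deposited tables. The Day 2 control enters both differences, so this count is not independent of the call. Rpl10a, a protein of the large ribosomal subunit, had a called junction at 76.5% and 29.8% in the authors' deposited table. Its transcript-based use was only 4.30%, 3.84% and 7.05% in controls and 1.61%, 2.48% and 1.91% in the knockdown, so the measures differed widely in level while both were lower in the knockdown.

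Splicing calls and mRNA level were set side by side. Of the 135 genes with a called variation, 134 were tested for expression, and 2 were higher and 26 lower in the knockdown. Of all 15129 tested genes, 277 were higher (1.83%) and 622 were lower (4.11%) at an edgeR adjusted p under 0.05. Among the 26 were Dmtn (log2 -0.86, SE 0.15, adjusted p = 0.00676), Napa (-0.94, SE 0.14, adjusted p = 0.00309), Fzr1 (-0.84, SE 0.16, adjusted p = 0.0106) and Pcyt2 (-0.72, SE 0.15, adjusted p = 0.014). Got1, the cytosolic aspartate aminotransferase, was also lower, at 15.3, 13.1 and 11.7 CPM in controls and 4.81, 6.38 and 6.49 CPM in the knockdown (log2 -1.18, SE 0.17, adjusted p = 0.00254). PSI needs enough junction reads in both groups, so a gene must be expressed to be called, and the share of lower genes was not compared by a test.

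The expression response was mostly downward and moderate. The median log2 fold change was 0.8 among the 277 higher and -0.79 among the 622 lower genes, against 0.03 over all tested genes, and 85 and 178 of them exceeded a 2-fold change. The medians by hairpin were close: the median log2 difference from the control mean in the lower genes was -0.77, -0.67 and -0.77 for hairpins 1, 3 and 4, and in the higher genes 0.76, 0.66 and 0.72. The control and knockdown values did not overlap in 274 of the higher and 619 of the lower genes, against 24.0% of all tested genes. The calls came from these same libraries, so neither this separation nor the hairpin medians are independent of the call. Without LUC-1 there were 153 higher and 344 lower genes. Without hairpin 4 the counts were 60 and 184, without hairpin 1 they were 131 and 270, and without SCR-2 they were 111 and 374. Of the 277 and 622 genes, 120 and 326 were also called without LUC-1. All kept their sign, but the libraries that remain also made the calls, so this was close to fixed in advance. With library totals in place of TMM factors the median of all genes moved to 0.25 and the split became 1074 higher and 326 lower. The lower genes had a median GC content of 56.0% and the higher genes 46.0%, against 49.3% over all genes. With a GC trend removed from each library 144 were higher and 329 lower, and the part of GC content in the response was not tested. In all 17 alternatives, 35 higher and 123 lower genes were called.

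**Figure D2:**
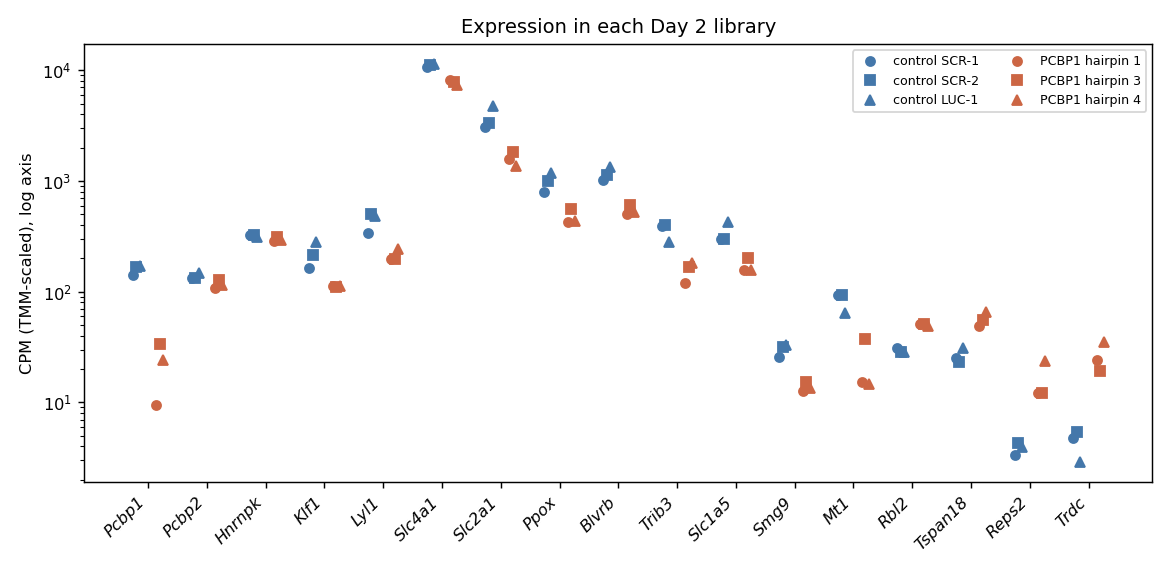
Expression of 17 genes in each Day 2 library (y axis, CPM on TMM-scaled library sizes, log axis). Blue symbols are the 3 controls, orange symbols hairpins 1, 3 and 4. Pcbp1 falls from between 141 and 169 CPM to between 9.38 and 33.9 CPM, and Reps2 and Trdc are higher with every hairpin. Pcbp2 and Hnrnpk differ far less than Pcbp1, though for Pcbp2 every hairpin is below every control.

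The lower genes were placed on the time axis of the culture with the Day 0 and Day 2 PCBP2 knockdown libraries, which stood on neither side of the comparison. Of 619 lower genes with a value there, 537 (86.8%) had a positive change from Day 0 to Day 2, with a median log2 change of 2.19. Of 273 higher genes 150 (54.9%) had one, with a median of 0.33, and of all 14554 genes 7465 (51.3%) had one, with a median of 0.09. Most genes that fell with PCBP1 knockdown were thus genes whose mRNA was higher late in this culture.

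**Figure D3:**
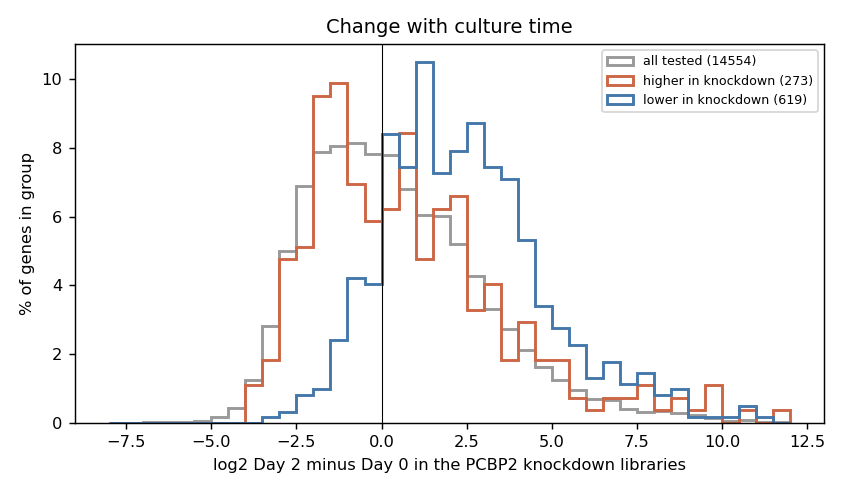
Change with culture time, log2 of Day 2 minus Day 0 in the PCBP2 knockdown libraries (x axis), as the share of genes in each group (y axis, %). The blue outline holds 619 genes lower in PCBP1 knockdown, the orange outline 273 higher genes and the grey outline 14554 tested genes. The blue outline is shifted to the right, with a median of 2.19 against 0.09 for all genes.

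Erythroid transcription factors were lower as a set of single genes: 9 of 22 fell and none rose, with a median log2 of -0.36. Over all tested genes 4.11% fell and 1.83% rose. The count of each list below is to be read beside these shares. The count ranged from 3 without hairpin 4 to 10 without SCR-1, and was 5 without LUC-1, 4 with the GC trend removed and 5 with library totals, under which 1 member was higher. Lyl1, a basic helix-loop-helix partner of the early blood programme, had 339.6, 503.7 and 486.1 CPM in controls and 198.5, 197.8 and 244.1 CPM in the knockdown (log2 -1.05, SE 0.17, adjusted p = 0.00384). Every hairpin lay below every control, and Lyl1 fell in all 17 alternatives, with a log2 difference of -0.53 when the GC trend was removed. Klf1, the main activator of adult beta-globin and of many red cell genes, was at 164.0, 212.7 and 278.8 CPM in controls and stood within 109.8 to 113.6 CPM with the hairpins (log2 -0.96, SE 0.16, adjusted p = 0.00563). LUC-1 was the highest control, and the log2 difference was -0.51 with the GC trend removed. Gata1, the lead erythroid factor, had 527.7, 589.9 and 634.0 CPM against 449.9, 448.5 and 434.5 CPM and did not pass the test (log2 -0.39, SE 0.11, adjusted p = 0.0536). Tal1 differed by -0.07 (SE 0.15, adjusted p = 0.84).

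Of 10 globin genes, 3 fell and none rose, with a median log2 of -0.33. Hbq1b, a theta-like globin of the alpha cluster, was the clearest, at 195.9, 191.7 and 199.4 CPM in controls and 117.8, 107.3 and 105.3 CPM in the knockdown (log2 -0.83, SE 0.11, adjusted p = 0.00123). The adult chains Hba-a1 and Hbb-bs fell by 0.78 and 0.39 on the log2 scale. Without hairpin 4 only 1 globin gene was called, and the Hba-a1 call was among those lost. The Hbb-bs call was lost without each of LUC-1 (adjusted p = 0.166), SCR-2 and any 1 hairpin, and with library totals. Near-identical adult globin copies share reads, so their split is uncertain. The embryonic Hbb-bh1 ran the other way, at 9.45, 8.81 and 26.3 CPM in controls and 46.7, 17.0 and 62.8 CPM in the knockdown. LUC-1 exceeded hairpin 3, so the groups overlapped. Hbb-bh1 did not pass the test with all libraries (log2 1.51, SE 0.44, adjusted p = 0.0588) and passed without LUC-1 (log2 2.21, adjusted p = 0.0109).

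Heme synthesis genes gave 5 lower and no higher members of 19 (median log2 -0.26), with 2 lower without LUC-1, hairpin 1 or hairpin 4, and with the GC trend removed. Ppox, which makes protoporphyrin, was at 796.2, 1005 and 1186 CPM in controls and 427.9, 554.7 and 436.1 CPM in the knockdown (log2 -1.07, SE 0.18, adjusted p = 0.00563), while Alas2, the erythroid first enzyme of the path, differed by 0.01 (SE 0.09, adjusted p = 0.968). Abcb10, a mitochondrial transporter needed for hemoglobin production, fell by 0.65. Blvrb, a biliverdin reductase, was the single called gene of 9 for heme breakdown and export and fell from 1011, 1125 and 1348 CPM to 500.4, 602.5 and 528.4 CPM (log2 -1.10, SE 0.13, adjusted p = 0.00108). Of 19 genes of iron uptake, storage and regulation, Pcbp1 itself was the only one called. Of 22 iron-sulfur cluster assembly genes none was called by edgeR with all libraries (7 at an unadjusted p under 0.05, 3 called by DESeq2), and 1 was lower without LUC-1. Tfrc, the transferrin receptor, had a log2 difference of -0.35 (adjusted p = 0.0833).

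Membrane skeleton genes gave 6 lower and no higher members of 27 (median log2 -0.31), with 4 lower without LUC-1 and 3 without hairpin 4. Slc4a1, the band 3 anion exchanger that anchors the skeleton, had 10720, 11230 and 11430 CPM in controls and 8150, 7856 and 7436 CPM with the hairpins. The 3 controls lay close together and above all hairpins (log2 -0.51, SE 0.09, adjusted p = 0.0072), and Slc4a1 fell in all 17 alternatives, with a log2 difference of -0.29 under library totals. The glucose transporter Slc2a1 fell from 3064, 3341 and 4774 CPM to 1574, 1818 and 1365 CPM (log2 -1.23, SE 0.17, adjusted p = 0.00154). Epb42, which encodes protein 4.2 of the skeleton, had a log2 difference of -0.17 (adjusted p = 0.361). Of 24 genes of the erythropoietin receptor and JAK2-STAT5 path, 3 fell and 1 rose, against 4.11% and 1.83% of all tested genes. None fell without hairpin 1, hairpin 4 or SCR-2, and with library totals none fell and 2 rose. Epor fell from 262.0, 320.5 and 465.3 CPM to 211.0, 227.6 and 206.9 CPM (log2 -0.70, SE 0.18, adjusted p = 0.04), but this was lost without LUC-1 (adjusted p = 0.149), SCR-2 or any 1 hairpin, with the GC trend removed (log2 -0.33, adjusted p = 0.284) and with library totals (adjusted p = 0.0696). Lyn, a Src-family kinase, rose from 12.9, 13.7 and 12.1 CPM to 17.3, 23.2 and 28.7 CPM (log2 0.84, SE 0.18, adjusted p = 0.0153), a call lost without hairpin 4.

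**Figure D4:**
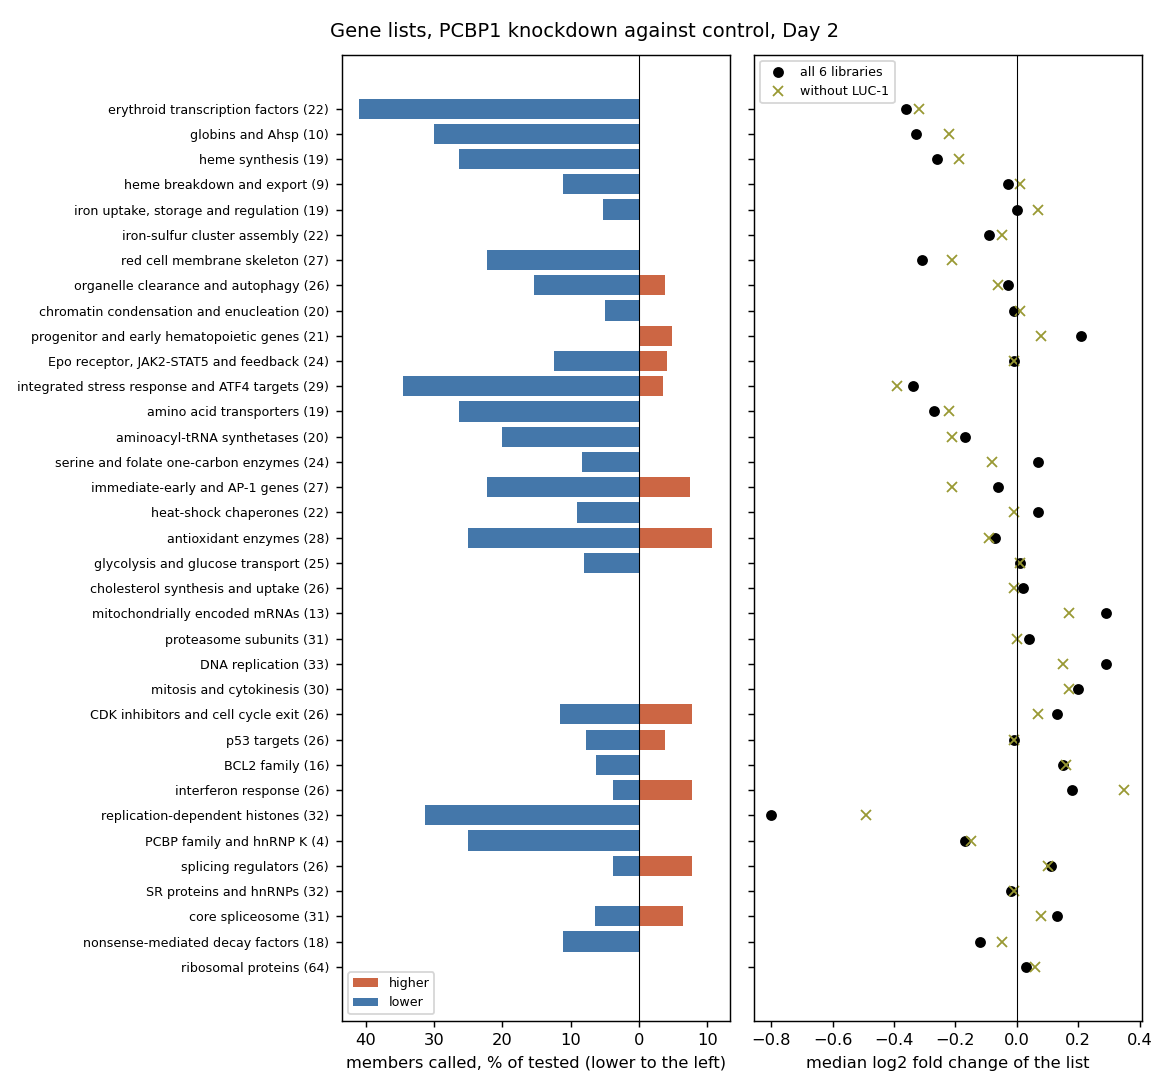
Gene lists in PCBP1 knockdown against control at Day 2, without the lists of other cell types. Bars on the left give the share of tested members called higher (orange, to the right) and lower (blue, to the left), in %, and points on the right give the median log2 fold change with all 6 libraries (circles) and without LUC-1 (crosses). Erythroid transcription factors (9 of 22 lower), the integrated stress response (10 of 29) and replication-dependent histones (10 of 32) have the longest bars.

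The integrated stress response, in which phosphorylated eIF2 favours translation of ATF4, had the most called members of the 42 lists by count. The lists differ in size, and as a share the erythroid transcription factors (9 of 22) had more. Of 29 tested genes 10 fell and 1 rose, with a median log2 of -0.34, and without LUC-1 the count was again 10 lower and 1 higher. Without hairpin 1, hairpin 4 or SCR-2 it was 6 lower and none higher, and with library totals 6 lower and 2 higher. Trib3, a pseudokinase induced by ATF4, was at 391.3, 402.2 and 279.5 CPM in controls and 120.7, 165.7 and 183.4 CPM in the knockdown (log2 -1.19, SE 0.17, adjusted p = 0.00254). All hairpins were below all controls, with LUC-1 the lowest control. Atf5 fell from 309.8, 359.0 and 351.5 CPM to 100.9, 166.5 and 153.4 CPM (log2 -1.28, SE 0.16, adjusted p = 0.00123). Cebpb fell by 1.73 on the log2 scale, and by 0.94 with the GC trend removed.

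Amino acid and folate genes gave a mixed picture. Of 19 amino acid transporters 5 fell and none rose (3 lower without LUC-1, hairpin 1 or hairpin 4). Slc1a5, the glutamine transporter, had 298.0, 296.9 and 426.7 CPM in controls and 157.1, 203.1 and 158.0 CPM in the knockdown (log2 -0.98, SE 0.16, adjusted p = 0.00386), and Slc3a2, the heavy chain that pairs with Slc7a5, fell by 0.56. Of 20 aminoacyl-tRNA synthetases 4 fell, and 1 without hairpin 1 or SCR-2. With library totals none was lower and 3 were higher, so the direction of that list depends on the scaling. Of 24 genes of serine and folate metabolism 2 fell and none rose, against 4.11% and 1.83% of all tested genes.

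Antioxidant genes split, with 7 lower and 3 higher of 28, and 2 lower and 1 higher without LUC-1 (1 lower and none higher without hairpin 4, 2 lower and 4 higher with library totals). The metallothionein Mt1, which binds zinc and copper, had 93.7, 93.7 and 64.3 CPM in controls and 15.4, 37.4 and 14.6 CPM with hairpins 1, 3 and 4 (log2 -1.90, SE 0.31, adjusted p = 0.00429). Mt2 ran at 123.2, 116.8 and 85.0 CPM and 20.9, 54.8 and 19.0 CPM, and its call was lost without hairpin 4. In both genes hairpin 3 was nearest to the controls. Pgd, an enzyme of the pentose phosphate path that yields NADPH, fell from 220.3, 213.9 and 215.0 CPM to 124.2, 147.7 and 144.7 CPM (log2 -0.64, SE 0.11, adjusted p = 0.00606).

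Immediate-early and AP-1 genes gave 6 lower and 2 higher of 27, and from 5 to 7 lower when any 1 library was left out. The higher count was 1 without LUC-1 and 0 without hairpin 3 or hairpin 4. Junb and Maff fell in all 17 alternatives, by 1.31 and 1.18 on the log2 scale, and Junb by 0.77 with the GC trend removed. Of 26 p53 targets 2 fell and 1 rose, against 4.11% and 1.83% of all tested genes. The rise was lost without hairpin 3 or any 1 control, 1 to 3 were lower with a library left out, 7 were higher with library totals, and none was called with the GC trend removed. The growth factor Gdf15 fell from 14.6, 26.4 and 20.2 CPM to 6.78, 11.2 and 10.9 CPM (log2 -1.08, SE 0.22, adjusted p = 0.0127), and its call was lost without SCR-2 and with the GC trend removed (log2 -0.60, adjusted p = 0.0746). Mdm2 had a log2 difference of 0.56 (SE 0.18, adjusted p = 0.08).

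Genes of DNA replication and mitosis were not called at this threshold. None of 33 DNA replication genes was called by edgeR (7 at an unadjusted p under 0.05, 1 by DESeq2). The same held for 30 mitosis genes (11 at an unadjusted p under 0.05, 1 by DESeq2), and the medians were 0.29 and 0.20. With library totals 2 replication and 8 mitosis genes were higher. The medians by hairpin were 0.44, 0.03 and 0.38 for replication and 0.35, -0.04 and 0.28 for mitosis, so hairpin 3 stood at the controls. Genes of CDK inhibition and cell cycle exit went both ways, with 2 higher and 3 lower of 26 and a median of 0.13. Leaving out 1 library gave 1 to 2 higher and 0 to 3 lower, and library totals gave 8 higher and 1 lower. Rbl2, the pocket protein p130 that holds E2F genes off in resting cells, rose from 30.8, 28.2 and 28.5 CPM to 51.1, 51.0 and 49.3 CPM (log2 0.79, SE 0.12, adjusted p = 0.00254), with little spread in either group. Replication-dependent histone mRNAs, which mostly lack a poly(A) tail, had a negative value in all 32 tested genes, with a median of -0.80, and 10 fell. LUC-1 and hairpin 4 weigh on this list, since 3 were called without LUC-1, 1 without hairpin 4 and 18 without SCR-1. Many histone genes are near-identical copies, so single values are uncertain.

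Few RNA-processing factors were called. None of 32 SR proteins and hnRNPs was called by edgeR (5 at an unadjusted p under 0.05, 0 by DESeq2), and none of 64 ribosomal protein genes (8 at an unadjusted p under 0.05, 2 by DESeq2). With library totals 1 and 5 of these were higher. Of 31 core spliceosome genes, Snrnp200 and Prpf8, both of the U5 particle, rose (log2 0.62 and 0.53) and Sf3a2 and Snrnp70 fell (log2 -0.70 and -0.54). Of these, Prpf8 (adjusted p = 0.107) and Snrnp70 (adjusted p = 0.0861) were lost without LUC-1, and without hairpin 4 none of the 4 was called. With the GC trend removed 1 core gene was higher and none lower, and with library totals 7 were higher and 1 lower. In nonsense-mediated decay, which removes mRNAs with early stop codons, 2 of 18 genes fell, against 4.11% of all tested genes. Smg9, a regulator of the SMG1 kinase, was at 25.9, 31.9 and 32.9 CPM in controls and 12.6, 15.3 and 13.6 CPM in the knockdown (log2 -1.13, SE 0.14, adjusted p = 0.00118). Smg5, which binds phosphorylated UPF1, fell from 155.1, 188.6 and 234.9 CPM to 105.8, 125.4 and 108.9 CPM (log2 -0.77, SE 0.14, adjusted p = 0.0086). Both fell in all 17 alternatives.

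Outside the lists, the genes that rose most included Reps2, an endocytic adaptor, at 3.38, 4.32 and 3.96 CPM in controls and 12.2, 12.1 and 23.8 CPM in the knockdown (log2 2.04, SE 0.24, adjusted p = 0.00098). Aldh1a1, which makes retinoic acid, had 8.53, 7.07 and 4.17 CPM against 35.4, 20.4 and 23.4 CPM (log2 2.00, SE 0.25, adjusted p = 0.00123). Abcg1, a cholesterol exporter, went from 3.44, 3.06 and 2.96 CPM to 8.68, 8.67 and 6.90 CPM (log2 1.36, SE 0.24, adjusted p = 0.00628). Tspan18, a tetraspanin, rose from 25.3, 23.4 and 31.3 CPM to 48.8, 56.1 and 65.6 CPM (log2 1.09, SE 0.19, adjusted p = 0.00566). Abca8b, a lipid transporter of the ABC family, rose from 7.38, 8.38 and 12.9 CPM to 24.1, 35.4 and 39.5 CPM (log2 1.79, SE 0.23, adjusted p = 0.00123). One of the largest falls was that of a histone gene with near-identical copies, Hist2h2aa1, from 4.41, 8.58 and 16.2 CPM to 0.53, 0.47 and 0.53 CPM (log2 -4.23, adjusted p = 0.000867). Another such histone gene, Hist2h2aa2, had a log2 difference of -5.2. Among the other large falls, the secreted neuropeptide precursor Vgf went from 249.8, 399.2 and 317.3 CPM to 80.3, 107.8 and 177.6 CPM (log2 -1.40, SE 0.24, adjusted p = 0.00658, and -0.84 with the GC trend removed), and Pelo, which rescues stalled ribosomes, from 40.9, 43.6 and 82.2 CPM to 16.2, 23.2 and 19.4 CPM (log2 -1.50, SE 0.24, adjusted p = 0.00429). The fall of Sp2 by 2.51 was lost without LUC-1 (adjusted p = 0.163), SCR-2 or any 1 hairpin, and with DESeq2.

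Markers of other blood cells were examined as whole lists. Megakaryocyte markers gave 2 higher and 2 lower of 18, against 1.83% and 4.11% of all tested genes. No rise was left without hairpin 1, hairpin 4 or SCR-2, and no fall without hairpin 1, hairpin 3 or SCR-2. Their summed level was 669.6 to 829.8 CPM in controls and 886.1 to 928.6 CPM in the knockdown. None of 18 neutrophil markers was called by edgeR (2 at an unadjusted p under 0.05, 0 by DESeq2), with summed levels of 641.8 to 904.6 CPM in controls and 654.9 to 929.6 CPM in the knockdown. None of 9 macrophage markers (1 at an unadjusted p under 0.05, 0 by DESeq2) and none of 11 mast cell, basophil and eosinophil markers (2 at an unadjusted p under 0.05, 0 by DESeq2) was called by edgeR. A single hepatocyte marker of 18 passed the filter on low counts and was not called, and of 7 endothelial and stromal markers that passed Col1a2 rose, at 0.95, 0.66 and 0.28 CPM in controls and 1.97, 1.28 and 2.07 CPM in the knockdown, a call lost without LUC-1, SCR-2, hairpin 1 or hairpin 4. Of 26 lymphoid markers 10 were tested and 2 rose, Trdc and Il7r, with summed levels of 12.7 to 16.3 CPM in controls and 33.5 to 52.3 CPM in the knockdown. The list as a whole did not rise alike: its median log2 was 0.13, 4 of the 10 had a negative value and the lowest was -0.95. The summed level includes Trdc and follows it closely. Trdc, the constant region of the T cell receptor delta chain, went from 4.77, 5.44 and 2.89 CPM to 24.1, 19.2 and 35.3 CPM (log2 2.58, SE 0.26, adjusted p = 0.000867). Another 4 of the tested lymphoid markers were under 1 CPM in every library. The number of cells of other types and their part in the other results were not tested.

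The PCBP2 knockdown at Day 2 is the nearest comparison, and the difference between both knockdowns was tested directly. It called 401 of 15129 genes (2.65%), 187 higher and 214 lower with PCBP1 knockdown, with counts from 57 to 612 when any 1 library was left out. Pcbp2 and Pcbp1 led each direction, with log2 differences of 2.23 and -2.65. Ptprh, a receptor tyrosine phosphatase, was at 6.91, 4.47 and 6.61 CPM with PCBP1 hairpins and 1.56, 1.20 and 1.61 CPM with PCBP2 hairpins (log2 2.04, SE 0.22, adjusted p = 0.001). Pebp1, the Raf kinase inhibitor, had 79.5, 80.0 and 88.8 CPM against 32.6, 29.6 and 31.6 CPM (log2 1.40, SE 0.15, adjusted p = 0.001). Got1 differed by -1.26. Of the erythroid transcription factors, none of 22 was called between the knockdowns by edgeR (4 at an unadjusted p under 0.05), with a median log2 difference of 0.0. The median was -0.04 for the membrane skeleton (0 of 27 called, 4 at an unadjusted p under 0.05). It was -0.1 for heme synthesis (1 of 19 lower) and -0.23 for the integrated stress response (5 of 29 lower). Some other lists differed more. The median was 0.47 for DNA replication (0 of 33 called) and 0.41 for mitosis (1 of 30 higher). For replication-dependent histones it was -0.76 (4 of 32 lower). In each of these 3 lists 20 members had an unadjusted p under 0.05 by edgeR.

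The change between days was tested as the difference of the PCBP1 effect at Day 2 and at Day 0. It called 20 of 16992 genes (0.118%), so for most of the genes above a Day 2 response was not shown to differ from the Day 0 one. Urb2, a nucleolar protein of ribosome assembly, had an effect of 0.12 at Day 0 and -1.03 at Day 2, and Reps2 one of 0.33 and 2.04. The count was 0 without hairpin 1, without hairpin 4 and without SCR-2, where 1599, 1405 and 1890 genes had an unadjusted p under 0.05 (2007 with all 12 libraries).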

How the data were processed

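RNA was sequenced from 18 libraries, 3 in each of 6 groups. Reads were handled with FastQC 0.11.9, Trim Galore 1.46.0, STAR 2.5.3a, SAMtools 1.9 and Salmon 0.11.3 on GRCm38, per the submitters' processing notes. The authors deposited, per library, estimated counts and TPM for each transcript, per the file headers. Their splicing tables give PSI as a fraction, the expected change in PSI and a posterior probability for pooled groups, per the file headers, and the program that made them is not given in the sources used here. A flag of de novo junctions in those tables ran opposite to the GENCODE M21 annotation, so annotation status was taken from M21.

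Of 111706 transcripts 110403 were matched to M21, and the 1303 others (0.275% to 0.351% of Day 2 reads) were left out. Estimated counts were summed to 46167 genes and rounded, and 15129 genes passed filterByExpr. edgeR 4.0.16 (R 4.3.3) fitted the 9 Day 2 libraries with 3 group means, TMM factors and the quasi-likelihood F test, with Benjamini-Hochberg adjustment over all tested genes and a threshold of 0.05. The contrast between days used 12 libraries. CPM are on TMM-scaled library sizes. Alternatives used DESeq2 1.42.0, limma 3.58.1, other scalings, filters and sets of libraries. Junction use per library was computed from TPM where a variation had at least 2 annotated junctions and a summed TPM of at least 1 in all 6 libraries. Tested on simulated counts with 14875 genes and this contrast, the fit recovered 80% of 100 genes changed by 1 on the log2 scale and 10% of 100 changed by 0.5, and called 15 unchanged genes. Unchanged genes were thus a larger share of the calls than the threshold of 0.05 in this 1 simulation. No pair of libraries agreed within counting noise.

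The members and the 42 gene lists were chosen with earlier results of these data known. Named genes were the PCBP family and Hnrnpk, the 15 protein-coding genes each way with the largest changes among those called, where the groups were apart and the mean log2 CPM reached 2, the members of each list with the lowest p (at most 4), the 6 with the smallest p each way in the other contrasts, and, for splicing, the 20 largest called changes and called genes of the lists. Usp19, Ranbp10, Sidt2, Hadhb and other genes outside this rule were chosen after their values were seen. The text describes part of the 183 genes that the rule names.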

Additional observations from a re-analysis of the deposited data

Results flagged for a closer look

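The PCBP1 knockdown effect differed between Day 2 and Day 0 in 20 genes by the edgeR quasi-likelihood test of that difference (adjusted p from 0.0166 to 0.0491). Values in this paragraph are the Day 2 minus the Day 0 effect on the log2 scale. The difference was positive for Eid1 (1.06), Trdc (2.48), Mtrf1 (1.77), Atp7a (1.09), Acaa2 (0.91), Reps2 (1.7), Tomm6 (0.87), Oxsm (1.17), Dgkz (0.79) and Eci2 (0.72). Trdc encodes a T cell receptor chain, Atp7a a copper exporter, and Acaa2 and Eci2 enzymes of fatty acid oxidation. The difference was negative for Urb2 (-1.18), Taf5l (-0.79), 5031439G07Rik (-1.03), Mnt (-1.04), Plod3 (-0.83), 2700038G22Rik (-0.99), Pyurf (-0.93), Slc25a3 (-0.65) and Sh3bp2 (-1.08), and for Gm21985 (-1.33), whose effect was 0.98 at Day 0 and -0.33 at Day 2. Mnt encodes a MYC antagonist that pairs with MAX, Slc25a3 the mitochondrial phosphate carrier and Plod3 a lysyl hydroxylase of collagen. No alternative explanation was tested, and leaving out 1 label on both days left 0 to 12 of such calls. With 3 libraries in a group, no test for a library far from the others was run.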

How the results depend on the processing

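Of 3092 values of 183 named genes under an alternative 9 values of 4 genes changed sign, none with a call on either side, 2679 kept their side of the threshold, 272 lost and 141 gained a call, and 45 of 104 called genes were called in every alternative. The 277 higher and 622 lower genes became 964 and 1332 with the 18 libraries of both days, 131 and 387 with only the 6 libraries compared, 144 and 329 with the GC trend removed, 1074 and 326 with library totals and 578 and 1036 with no filter, and the higher genes 169 with an effective length offset. Leaving out 1 library gave 60 to 271 higher and 184 to 746 lower genes. The counts stayed within 1.5 times with DESeq2 (415 and 930), size factors of its kind, robust estimation, a stricter filter and globins left out. Against PCBP2 knockdown the 401 calls became 892 with only the 6 knockdown libraries and 57 to 612 with 1 left out. Library totals gave 369, and GC removal, chosen after seeing the data, 511. The 20 calls between days became 68 with 18 libraries, 33 with voom and a variance per day, and 0 to 12 with 1 label left out of both days. Of the splicing calls 168 became 96 at a posterior of 0.99, 251 at 0.90 and 37 with annotated junctions only. The 33 variations with junction use apart became 25 at a TPM of 5 and 34 to 42 with 1 library left out. Among variations not called, the share apart was 17.3%, 20.4% at a TPM of 5 and 24.7% to 29.1% with 1 left out. The cause of these shifts was not tested. With a replicate block, 738 genes differed from PCBP2 knockdown and 6 between days. The labels share only a number or name: deviations of the same label on both days correlated at -0.02 to 0.10, those of the same hairpin number at -0.08 to 0.07, and only some libraries correlated best with their own number. No paired analysis was possible because hairpins and controls share only the number 1, which 2 of the controls carry, for PCBP1 knockdown against control.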

Other observations

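Ubiquitin ligases and autophagy genes serve late erythroblasts in clearing mitochondria and other organelles. Of 26 genes on that list 4 fell and 1 rose at Day 2, with a median log2 of -0.03. When 1 library was left out 0 to 3 were lower, and with library totals 3 were lower and 5 higher. Rnf123, a ubiquitin ligase subunit, was at 383.1, 483.2 and 526.7 CPM in SCR-1, SCR-2 and LUC-1, against 243.7, 324.0 and 243.5 CPM with hairpins 1, 3 and 4 (log2 -0.78, SE 0.15, edgeR adjusted p = 0.00915), a call lost without hairpin 4. Atg4d, a protease that processes the autophagy protein ATG8, had 45.4, 51.3 and 85.8 CPM in controls, and the hairpins lay between 33.0 and 34.2 CPM (log2 -0.86, SE 0.20, edgeR adjusted p = 0.0202), a call lost without any 1 hairpin, and a log2 difference of -0.52 without LUC-1.

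Interferon response genes gave 2 higher and 1 lower of 26, against 1.83% and 4.11% of all tested genes. None was higher without hairpin 4, and 7 were with library totals in place of TMM factors. The chemokine gene Cxcl10 rose from 3.14, 3.55 and 1.67 CPM to 5.17, 6.25 and 11.3 CPM (log2 1.44, SE 0.30, edgeR adjusted p = 0.0134), a call lost without hairpin 4. Isg20, an RNA exonuclease, fell from 235.5, 273.7 and 235.7 CPM to 137.5, 150.4 and 128.6 CPM (log2 -0.84, SE 0.12, edgeR adjusted p = 0.00254) and was called in all 17 alternatives. Bbc3, which encodes the pro-apoptotic protein PUMA, was the 1 gene called of 16 in the BCL2 family and fell from 356.6, 626.7 and 630.6 CPM to 233.5, 244.6 and 292.2 CPM (log2 -1.07, SE 0.18, edgeR adjusted p = 0.00563), a call lost with the GC trend removed (log2 -0.30). The chaperone Hspa5, a resident of the endoplasmic reticulum, fell from 1114, 992.1 and 1056 CPM to 675.4, 811.7 and 680.4 CPM (log2 -0.55, SE 0.12, edgeR adjusted p = 0.0148), a call lost without hairpin 1 or hairpin 4 and with library totals.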
